A study of Mus musculus with 2 samples.

Results

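Among the CD45+ immune cells of mouse skin were C1q-expressing cells, named macrophages for that gene set, that also carried transcripts of Ly6c2, a surface antigen best known from circulating monocytes. These Ly6c2-positive C1q cells were selected on measured values: at least 200 genes, at most 10% mitochondrial UMIs, at least 5 UMIs summed over C1qa, C1qb and C1qc, at least 3 UMIs of Ly6c2, fewer than 20 of S100a8 and S100a9 together, and none of Cd3e or Cd207. The rule found 197 of 12558 kept cells (14146 barcodes in all), of which 180 came from control skin and 17 from DPCP-treated skin. They are set against C1q cells that met the same conditions but held fewer than 3 Ly6c2 UMIs, of which there were 487 in control and 207 in DPCP skin. Ly6c2, the C1q genes and the genes the rule excluded therefore describe the choice and support nothing below.

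The study took full-thickness mouse skin, digested it with Liberase, sorted CD45+ cells and sequenced them with 3′ droplet chemistry. One sample was control skin at day 0 and the other skin at day 2 after challenge with DPCP (diphenylcyclopropenone), a contact sensitizer that provokes contact hypersensitivity. Strain, sex, age and the number of mice behind each sample are not given in the sources used here, and no gene was altered in either group as far as the labels say. Each condition was 1 tagged sample of 1 pool, no barcode was shared between the tags, and cells are not replicates, so no test was made. Values are unique molecular identifier (UMI) counts summed over the cells of a group and scaled to a total of 1000000 counts per group (CPM). Every interval is a 95% interval of counting error alone, and variation between mice is not in it.

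Macrophages of the skin clear debris, present antigen and renew partly from monocytes that enter from blood. In the mouse, Ly6C-high monocytes that settle in the dermis lose Ly6C as they gain MHC class II and macrophage genes. Type I interferon, sensed through its receptor, activates a complex that includes STAT2 and IRF9, which binds the interferon-stimulated response element (ISRE) and switches on antiviral genes. Type II interferon acts on the gamma-activated site (GAS) and induces MHC genes and many GTPases.

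The regulatory sequences of such genes are shown because nearly all measured interferon-induced genes differed between the groups. RefSeq promoter windows of GRCm38.p6, the mm10 assembly, ran from 250 bases before to 50 after each start site. They were searched on both strands for the ISRE core GAAANNGAAA and the GAS motif TTCNNNGAA, which do not contain each other but may overlap. Below, matches stand in capitals within stretches of 60 bases upstream of the start, printed along the gene's strand. Isg15 encodes a ubiquitin-like modifier, Ifit3 an antiviral adaptor, Oas3 an oligoadenylate synthetase, and Fcgr4 and Fcgr1 activating Fc receptors for IgG. The first 4 show the ISRE core and the last the GAS motif, and in Ifit3 the match lies on the other strand.
Isg15, chr4:156200850-156200909, minus strand: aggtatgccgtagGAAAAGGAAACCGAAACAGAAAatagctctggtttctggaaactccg
Ifit3, chr19:34583348-34583407, plus strand: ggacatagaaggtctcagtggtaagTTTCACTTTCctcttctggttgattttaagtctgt
Oas3, chr5:120777700-120777759, minus strand: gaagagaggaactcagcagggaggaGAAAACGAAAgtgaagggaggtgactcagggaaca
Fcgr4, chr1:171018828-171018887, plus strand: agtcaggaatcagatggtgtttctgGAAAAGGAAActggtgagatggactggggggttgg
Fcgr1, chr3:96294044-96294103, minus strand: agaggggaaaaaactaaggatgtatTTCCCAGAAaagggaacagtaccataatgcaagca
In Isg15 overlapping ISRE cores formed 1 run. Over the lists used below, 15 of the 23 measured type I interferon genes with a RefSeq promoter (65.2%) held an ISRE core, as did 9 of 9 guanylate-binding and immunity-related GTPase genes and 3 of 12 MHC class I genes (25%). None of 5 MHC class II genes and none of 11 monocyte genes held one. Of all 27025 genes with a promoter, 3.99% held an ISRE core and 9.55% the GAS motif, and of the 9 GTPase genes 5 held the GAS motif (55.6%). A match says only that the letters are there, since binding was not measured.

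In control members Ly6c2 was spread widely, with 3 to 214 UMIs per cell, a median of 32 and quartiles of 12.75 and 76.25. The threshold itself cut through few cells: 17 control C1q cells held 2 UMIs and 7 held 3, 383 held none, and 150 of the 180 members held 8 or more. DPCP members sat near the threshold, with 3 to 22 UMIs and a median of 7, and 10 DPCP C1q cells held 2 UMIs and 4 held 3. C1q UMIs ran from 5 to 229 with a median of 34 in control members and a median of 18 in Ly6c2-low cells. Around the C1q limit, 7, 8, 6 and 11 Ly6c2-positive control cells held C1q sums of 3, 4, 5 and 6, without a gap at the limit. The plot of Ly6c2 UMIs per cell shows both conditions.

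**Figure D1:**
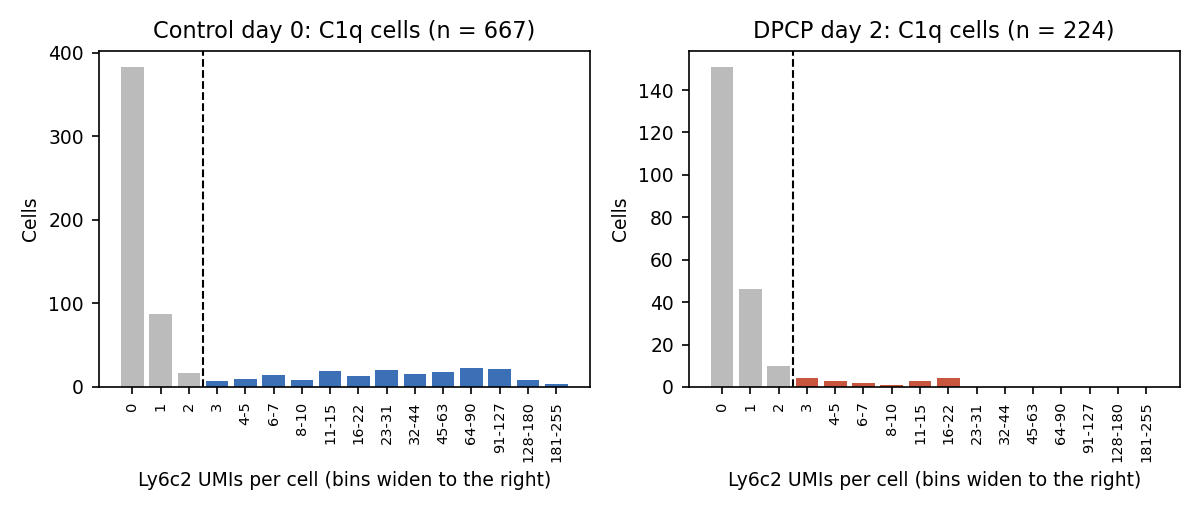
Number of C1q cells (vertical axis) by Ly6c2 UMIs per cell (horizontal axis, bins widening to the right) in control day 0 (left) and DPCP day 2 (right) skin, with Ly6c2-low cells in grey, members in colour and the rule's threshold dashed. Control members reach 214 UMIs and DPCP members 22.

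Of all C1q cells that met the other conditions, 180 of 667 in control (27.0%, exact Clopper-Pearson interval 23.7 to 30.5) and 17 of 224 in DPCP skin (7.59%, 4.48 to 11.9) were Ly6c2-positive. With every kept cell thinned to 2000 UMIs and all limits on UMIs applied again, the shares were 24.6% (20.2 to 29.4, 88 of 358 cells) and 0.575% (0.0145 to 3.16, 1 of 174). Cells under 2000 UMIs were left out, among them 4 control and 1 DPCP C1q cells. The unthinned DPCP share thus rested on cells with few Ly6c2 UMIs. Its 17 members had a median depth of 16165 UMIs against 10469 in the DPCP Ly6c2-low cells, while control members (median 11411.5) and Ly6c2-low cells (10654) were closer. The gates removed cells before this count: of the C1q cells with at least 3 Ly6c2 UMIs, 24 of 207 control and 7 of 27 DPCP cells held Cd3e UMIs, and the S100 limit removed 2 in each condition. Members were 180 of all 677 kept control cells with at least 3 Ly6c2 UMIs, and 17 of 763 such DPCP cells, of which 27 held at least 5 C1q UMIs.

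The name macrophage was checked against markers that the rule did not use. Fcgr1 (ENSMUSG00000015947, mm10 chromosome 3, 96282909 to 96293969), the high-affinity IgG receptor CD64 and a defining macrophage gene, stood at 456 CPM (429 to 485) in control members and 45 CPM (39.8 to 50.6) in Ly6c2-low cells. Siglec1 (ENSMUSG00000027322, mm10 chromosome 2, 131069220 to 131086765), the sialoadhesin of sentinel macrophages, was at 236 against 24.1 CPM, and Maf (ENSMUSG00000055435, mm10 chromosome 8, 115682942 to 115707794), a transcription factor of resident macrophages, at 1484 against 452 CPM. A Fcgr1 UMI was found in 175 of 180 members and 119 of 487 Ly6c2-low cells, and Siglec1 in 144 and 81. Thinned to 2000 UMIs, 57.0% (49.4 to 64.3) of members and 11.6% (8.86 to 14.8) of Ly6c2-low cells held a Fcgr1 UMI, and 37.4% (30.3 to 45) and 5.99% (4.05 to 8.49) a Siglec1 UMI. Kept control cells with at least 2 Cd3e UMIs and no C1q UMI, taken as T cells to measure free RNA (median 7882 UMIs), gave 1.65% (0.341 to 4.74) and 0.549% (0.0139 to 3.02). Since cells with a C1q UMI were left out, this background may be too low. Adgre1, which encodes F4/80, was at 638 and 488 CPM and Csf1r, the receptor for the macrophage growth factor, at 536 and 378 CPM, so both groups carried these genes. The gated monocytes described further on, Ly6c2-positive control cells with at most 1 C1q UMI, held Fcgr1 at 350.4 CPM (323 to 379.9) and Siglec1 at 114 CPM (98.6 to 132), both above the Ly6c2-low C1q cells. Fcgr1 and Siglec1 therefore did not separate macrophages from monocytes here. Maf was lower in the gated monocytes than in members, as given further on, where other macrophage genes went both ways. The name rests on the C1q genes of the rule.

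Monocyte markers were plentiful in the members: the 6-gene list summed to 3678 CPM, with at least 3 UMIs in 180 of 180 members, against 1664 CPM in Ly6c2-low cells and 6888 CPM in the gated monocytes. Genes of other lineages gave fewer UMIs. Of plasmacytoid dendritic cells, which produce interferon, Ccr9, Klk1 and Ly6d were at 0 and Siglech had 4 UMIs, though the 7-gene list summed to 301 CPM in members and 252 CPM in Ly6c2-low cells, mostly from Tcf4. The neutrophil granule genes Ngp and Ltf were at 0 and Camp had 1 UMI, while the neutrophil list summed to 139.5 against 78.4 CPM, mostly from Csf3r (243 member UMIs). T or NK cell markers gave 53 UMIs over 43 members. The conventional dendritic cell list was at 135 against 71.5 CPM, and 34 members held at least 3 of its UMIs. Of its UMIs in members, 217 of 303 were Dpp4, with 16 of Flt3 and 11 of Zbtb46. Median mitochondrial share was 1.30% in members and 2.29% in Ly6c2-low cells. The part of these differences in the results was not tested. With the cell filter tightened to 500 genes and 5% mitochondrial UMIs together, the counts of genes given next were 973 higher and 1009 lower.

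In control skin 9278 of 32285 genes were measured in members and Ly6c2-low C1q cells. A gene was measured with at least 50 UMIs over both groups, and called higher or lower at a ratio of 1.5 with an interval that excludes 1. By that rule 988 genes (10.6% of those measured) were higher and 1021 (11%) lower in members, with a median log2 ratio over all genes of -0.01. These shares are the background for every list below. The comparison cells were not 1 kind: only 96 of the 487 Ly6c2-low cells held fewer than 10 Retnla UMIs, against 145 of the 180 members. Retnla encodes a secreted protein of alternatively activated macrophages. A second comparison, added after the data were seen, therefore used only those 96 cells. In it 897 of 7031 genes were higher (12.8%) and 1287 lower (18.3%), and 312 of the 988 and 312 of the 1021 calls were made again in the same direction. Values against these 96 Retnla-poor cells are given beside many of the genes and lists below.

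**Figure D2:**
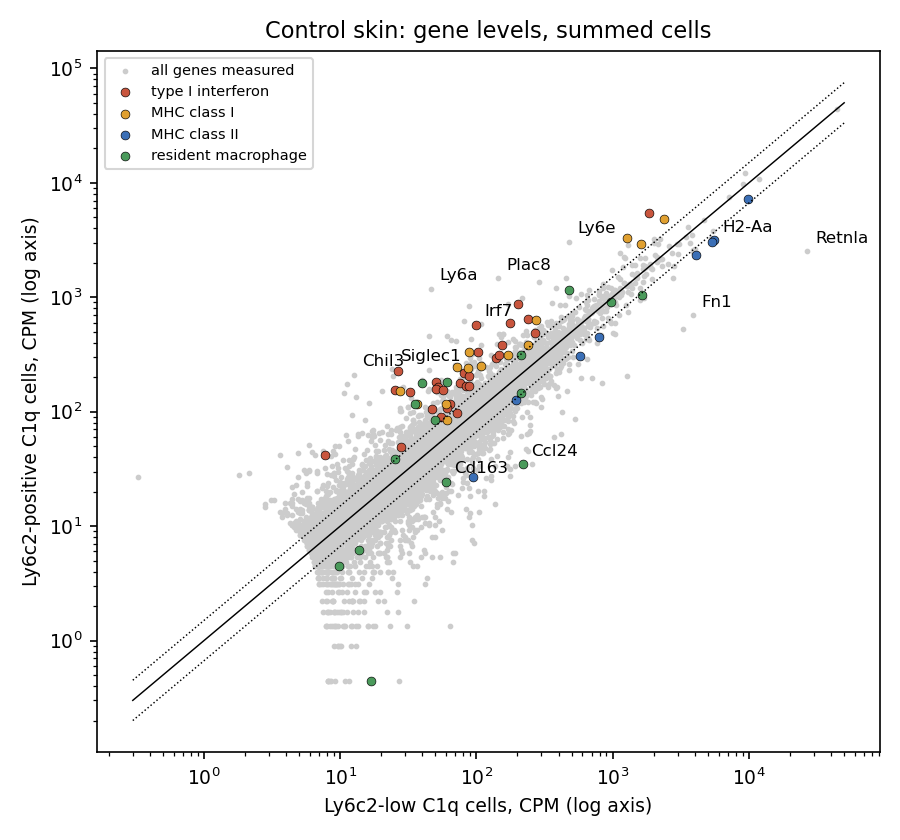
Level of each measured gene in control Ly6c2-low (horizontal) and Ly6c2-positive (vertical) C1q cells, in CPM on log axes, with the line of equality solid, the 1.5-fold lines dotted, and genes without UMIs in 1 group drawn at a floor of 3 counts. Nearly all type I interferon and MHC class I genes lie above the lines and most MHC class II genes below.

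Interferon-induced genes were higher in members almost throughout. Of 29 measured genes of the type I interferon list, 28 were higher and none lower, with a median log2 ratio of 1.42, against 10.6% of all genes and a median of -0.01. The exception was Irf9, a subunit of the ISRE-binding complex, at 96.9 against 72.2 CPM, a ratio of 1.34 (1.14 to 1.58). Its partner subunit Stat2 was higher at 2.15 times the comparison level. Irf7, the transcription factor that amplifies interferon production, stood at 577 CPM (546 to 609) in members and 99.5 CPM (91.7 to 108) in Ly6c2-low cells, a ratio of 5.80 (5.26 to 6.40). The largest ratio in the list was that of Ifi44, at 228 against 26.3 CPM, or 8.65 (7.24 to 10.4).

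The antiviral effectors followed. Ifit2, whose product binds viral RNA, was at 154 against 25 CPM and Ifit3 at 149 against 32.6 CPM. Isg15 stood at 334 against 102 CPM, a ratio of 3.26 (2.93 to 3.63), and Bst2, the tetherin that holds budding virions at the membrane, at 874 against 200.3 CPM. Of the oligoadenylate synthetases, Oas3 had a ratio of 3.58 (3.08 to 4.17) and Oas1a of 3.15 (2.70 to 3.67). Ifi27l2a was the most abundant member of the list at 5448 against 1838 CPM, and without it the summed list was still at 7233 against 2569 CPM. Ifit3 and Ifit3b, and Phf11a, Phf11b and Phf11d, are near-identical copies whose reads may have been split or dropped, so their separate values are uncertain.

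Cell by cell the difference was broad. The whole interferon list took 15.2 to 389 UMIs per 10000 in members, with a median of 127, and 0 to 327 in Ly6c2-low cells, with a median of 28.9. The ranges overlapped, yet 175 of 180 members lay above the Ly6c2-low median. Against the 96 Retnla-poor cells 22 of the 29 genes were still higher and none lower, beside a background of 12.8%, with a median log2 ratio of 0.99. The calls that ended there were Ifit1 (1.37), Oas2 (1.11), Rsad2 (1.40), Stat2 (1.43), Ifih1 (1.22) and Trim30a (1.38), and the ratio of Irf7 was 3.39 (2.83 to 4.09). Mx1 and Mx2 were not analysed here.

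Of 14 guanylate-binding and immunity-related GTPases, which attack the vacuoles of intracellular microbes, 8 were higher and 1 lower (median log2 ratio 0.995). Iigp1 was at 135 against 13.1 CPM, a ratio of 10.3 (8.02 to 13.3), and Gbp6 at 44.0 against 6.22 CPM. Gbp5 (1.17), Gbp7 (1.12) and Gbp3 (1.32) did not pass. The lower gene was Gbp2b at 6.22 against 41.4 CPM, a ratio of 0.150 (0.0810 to 0.257). Retnla-poor cells held no Gbp2b UMI and members 14, too few to be called. With a floor of 3 counts over those cells the ratio was 1.61, with an interval from 1.14 upward. Genes of this family resemble one another, so reads may have been assigned unevenly among them.

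The Ly6 genes near Ly6c2 on chromosome 15 were high as well. Ly6a (ENSMUSG00000075602, mm10 chromosome 15, 74994877 to 74998031, with Ly6c2 itself at 75108158 to 75111970), which encodes the surface antigen Sca-1, stood at 1191 CPM (1146 to 1237) in members and 46.3 CPM (41.1 to 52.0) in Ly6c2-low cells, a ratio of 25.7 (22.7 to 29.2). After thinning, 73.7% (66.7 to 80) of members, 5.99% (4.05 to 8.49) of Ly6c2-low cells and 9.34% (5.54 to 14.5) of the Cd3e-positive cells held a Ly6a UMI. Ly6e, an interferon-induced gene that limits virus entry, was at 3063 against 481 CPM, a ratio of 6.36 (6.09 to 6.65), and 180 of 180 members exceeded the Ly6c2-low median of 1.79 UMIs per 10000. Against Retnla-poor cells the ratios of Ly6a and Ly6e were 8.47 and 2.76. Ly6c1, a near-identical copy of Ly6c2, had only 5 UMIs in members and 10 in Ly6c2-low cells, and reads shared by the copies may have been dropped or split. The other 7 genes of this list held too few UMIs to be measured.

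Among Fc gamma receptor genes 3 of 6 were higher and none lower. They were Fcgr1 at a ratio of 10.1 (8.87 to 11.6), Fcgr4 at 231 against 44.8 CPM with a ratio of 5.14 (4.44 to 5.98), and Fcer1g, the signalling chain that both receptors need, at 1.85. The inhibitory receptor gene Fcgr2b (1.09), the low-affinity Fcgr3 (0.945) and the recycling receptor gene Fcgrt (0.923) did not pass. Against Retnla-poor cells these 3 receptor genes were higher too, at 2.55, 1.75 and 1.62, and Fcgrt was lower at 0.598 (0.458 to 0.783).

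MHC class I and class II genes went opposite ways. Of 14 class I genes, 13 were higher and none lower, with a median log2 ratio of 1.21. The heavy chain gene H2-K1 stood at 3306 against 1263 CPM (2.62), B2m, the invariant light chain, at 4841 against 2380.2 CPM (2.03), and Psmb9, an immunoproteasome subunit, at 243 against 87.4 CPM (2.78). The peptide transporter gene Tap1 was higher at 2.35, while its partner Tap2 did not pass at 1.39 (1.16 to 1.66). The heavy chain genes resemble one another, most of all H2-Q4, H2-Q6 and H2-Q7, so how reads fell among them is uncertain. Summed per cell, class I took 30.1 to 293 UMIs per 10000 in members (median 145) and 13.1 to 273 in Ly6c2-low cells (median 58.8), and 176 of 180 members lay above the latter median. Against Retnla-poor cells 11 of 14 were higher and none lower.

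Of 8 class II genes, 7 were lower and none higher, with a median log2 ratio of -0.82 and a background of 11% lower. H2-Aa, an alpha chain, stood at 3163 against 5554 CPM, a ratio of 0.570 (0.555 to 0.584). Its partner chain H2-Ab1 was at 0.564, the peptide editor H2-DMa at 0.569 and Ciita, the class II transactivator, at 0.659. Cd74, the invariant chain, did not reach the 1.5-fold limit at 7164 against 9815 CPM. Members varied far more than the ratio shows: summed class II ran from 4.33 to 619 UMIs per 10000, with a median of 122 and quartiles of 26.6 and 257, and 48 of 180 members lay above the Ly6c2-low median of 254. Against Retnla-poor cells 5 of 8 were lower, beside a background of 18.3%. Cd74 then passed at 0.531, and H2-DMa (1.03), H2-DMb1 (0.804) and H2-DMb2 (1.11) did not.

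Of 14 measured monocyte genes, 10 were higher and 1 lower in members (median log2 ratio 0.96). Plac8, abundant in classical monocytes, stood at 1458 CPM (1408 to 1508) against 143 CPM (134 to 153), a ratio of 10.2 (9.45 to 11). Chil3, a chitinase-like protein of inflammatory monocytes, was at 211 against 12.6 CPM, with a UMI in 83 of 180 members. Ms4a4c was at 843 against 88.0 CPM. Ccr2, the receptor that draws monocytes from marrow, was high in both groups at 1922 and 1468 CPM and did not pass. Against Retnla-poor cells 8 of 13 measured monocyte genes were higher and 1 lower, with a median log2 ratio of 1.16 and a background of 12.8% higher. Plac8 (8.25), Chil3 (9.61) and Ms4a4c (3.37) stayed higher there, and Ccr2 was called higher at 2.05 (1.90 to 2.22). Fn1, fibronectin, was the lower gene at 699 against 3908 CPM, but stood at 1.26 (1.13 to 1.40) against Retnla-poor cells. Cx3cr1, the fractalkine receptor, was higher at 1.97 and became lower at 0.318 (0.280 to 0.361) against them. Hp and Ace, called higher in the main comparison, were not called against Retnla-poor cells. The interval of Hp (1.76 (0.852 to 4.09)) includes 1, and Ace (1.72 (0.648 to 5.77)) held too few UMIs to be measured.

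Genes of resident macrophages split: of 15 measured, 6 were higher and 6 lower, with a median log2 ratio of -0.10. Folr2, a folate receptor of perivascular macrophages, was at 183 against 60.7 CPM (3.02), Cbr2 at 179.5 against 39.9 CPM (4.50) and Gas6, a bridge for eating dead cells, at 116 against 35.2 CPM (3.28). Cd163, the haemoglobin scavenger receptor, was lower at 24.4 against 59.4 CPM (0.412), and the chemokine gene Ccl24 at 34.7 against 219.6 CPM. Cd209f had 1 UMI in members and 102 in Ly6c2-low cells, a ratio of 0.0266 (0.000668 to 0.152). Lyve1 (3 UMIs) and Timd4 (0) were too sparse to measure. Folr2 UMIs came from 82 of 180 members and Cbr2 UMIs from 84, a count that depends on depth and was not thinned. Against Retnla-poor cells Folr2 stayed higher (1.58) and Cd163 lower (0.204), Cbr2 (1.28) and Gas6 (0.8) lost their calls, and Stab1, a scavenger receptor called higher at 1.72, became lower at 0.251 (0.207 to 0.304). Selenop, higher at 2.41, stood at 0.888 and Ccl24 at 1.49 (0.886 to 2.65).

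Of 15 core macrophage genes 6 were higher and none lower (median log2 ratio 0.50). Beside Fcgr1, Siglec1, Maf and Cx3cr1 these were Aif1 at 5.46 and Cd68, a lysosomal glycoprotein, at 1.67. Mertk (1.18), Apoe (1.44) and Lyz2 (1.07) did not pass. Against Retnla-poor cells 3 were higher and 5 lower, with a median of -0.02: Fcgr1 and Siglec1 (2.65) kept their calls, Maf (1.38), Aif1 (1.38) and Cd68 (1.27) lost theirs, and Apoe was lower at 0.334 (0.324 to 0.345). Of 17 macrophage transcription factors 3 were higher, 4 lower and 10 neither. Beside Maf, Irf8, which directs monocyte and dendritic cell fate, was higher at 2.54 but lower at 0.566 (0.471 to 0.680) against Retnla-poor cells, and Nr1h3, the liver X receptor alpha, was at 3.19 on 27 UMIs and at 0.931 (0.437 to 2.16) against Retnla-poor cells. Klf4 (0.419), Batf3 (0.515), Irf4 (0.617) and Bhlhe40 (0.293) were lower, and none of these 4 was called lower against Retnla-poor cells.

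Secreted factors differed gene by gene. In complement, 6 of 10 were higher and 3 lower. Cfb, factor B of the alternative pathway, stood at 459.5 against 60.5 CPM, a ratio of 7.59 (6.73 to 8.57), C3 at 5.07 and the receptor gene C3ar1 at 3.07, and these 3 kept their calls against Retnla-poor cells (5.24, 2.27 and 1.58). C4b was lower at 0.274 but 1.15 (0.816 to 1.66) against them, and properdin, Cfp, went from 0.653 to 2.15. The list had 5 higher and 2 lower there. Of 14 chemokine genes 6 were higher and 1, Ccl24, lower. The monocyte attractants Ccl2, Ccl7 and Ccl12 were at 2.81, 5.55 and 7.35, with Ccl12 from 53 members and at 1.04 against Retnla-poor cells. All 51 member UMIs of Cxcl9 came from 1 cell. Against Retnla-poor cells 4 of 13 chemokine genes were higher and 5 lower, namely Cxcl16 (0.126), Ccl4 (0.400), Ccl3 (0.424), Cxcl2 (0.572) and Pf4 (0.641). In the cytokine list 4 of 14 were higher and 2 lower: Il18bp, which neutralises interleukin 18, was at 43.1 against 4.91 CPM, a ratio of 8.78 (5.78 to 13.7), and Il18 itself at 2.16. Il1b (0.763) and Tnf (1.28) did not pass. Against Retnla-poor cells 2 of 9 cytokine genes, Il18 and Il18bp, were higher and 3 lower, namely Tnfsf13b (0.109), Igf1 (0.396) and Il1b at 0.285 (0.218 to 0.372).

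Of 16 scavenger and phagocytosis genes 7 were higher and 5 lower. Msr1, scavenger receptor A, was at 5.6, Trem2, a lipid receptor, at 3.61 and Axl, a receptor for Gas6, at 2.04, while Cd36, a fatty acid transporter, was at 0.503. Against Retnla-poor cells the list had 2 higher and 7 lower. Msr1 (1.44) and Trem2 (1.24) lost their calls there, and Axl was lower at 0.510 (0.433 to 0.602). Of 16 lysosomal genes 5 were higher and none lower, among them the proteases Lgmn (3.15, and 1.21 against Retnla-poor cells) and Ctsb (2.18, and 1.40). Of 15 dissociation and stress genes 8 were lower and none higher (median -0.75), with Dusp1 at 0.437, Fosb at 0.337 and Fos at 0.569, and Jun, at 1.07, not passing. Against Retnla-poor cells 4 of 13 were lower, among them these 3 (0.485, 0.564 and 0.602). Members also held the lower mitochondrial share given above, and its part in this was not tested. Of 9 cell cycle genes 5 were higher, but Top2a came from 13 members, and without the cells of highest UMI count its log2 ratio turned from 1.57 to -1.13. Ccnd1, cyclin D1, was at 264 against 84.1 CPM (3.14), with a UMI in 106 members, and at 1.15 against Retnla-poor cells. Of 9 measured genes of the Spp1 macrophage programme 4 were higher and 3 lower, and Spp1 itself, osteopontin, stood at 78.2 against 39.9 CPM.

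**Figure D3:**
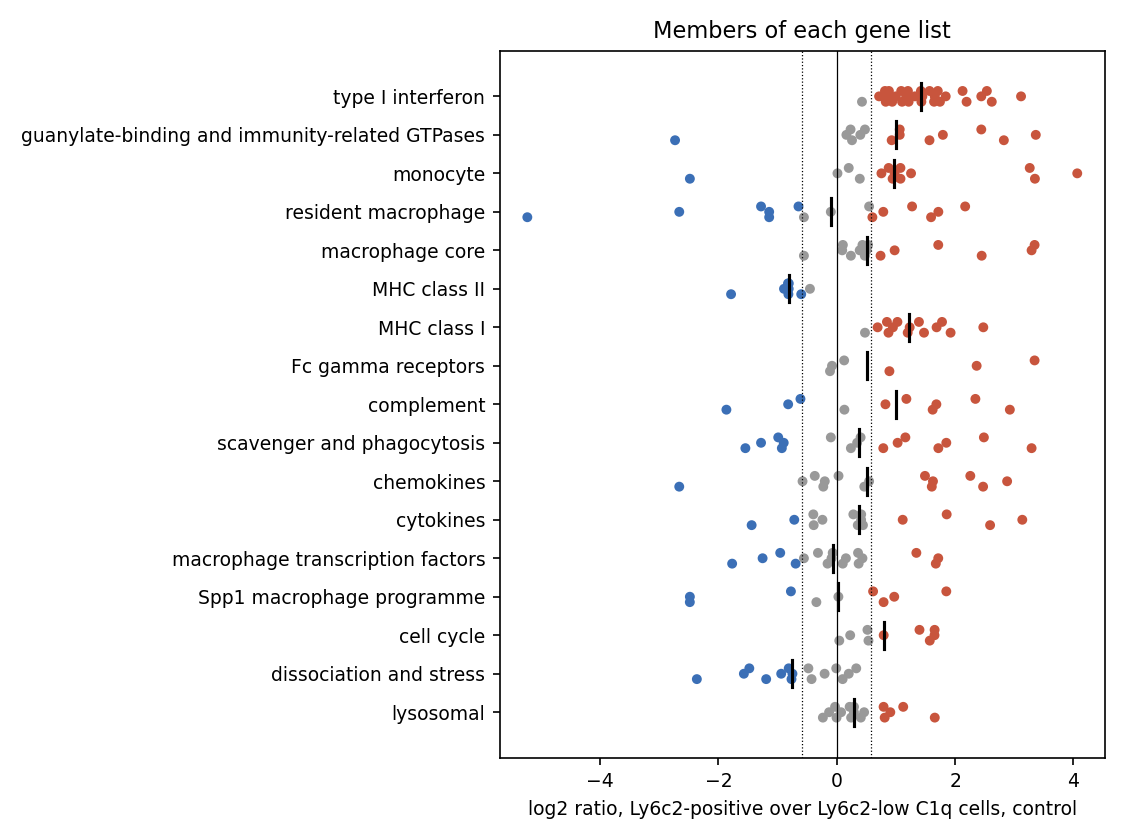
Log2 ratio of each measured gene (points) in control Ly6c2-positive over Ly6c2-low C1q cells, by gene list, with called higher genes red, called lower genes blue, others grey, the list median as a bar and 1.5-fold limits dotted. In the type I interferon list 28 of 29 points are red, and in the MHC class II list 7 of 8 are blue. The Ly6 list, with 2 measured genes, is left out.

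Among genes of at least 20 CPM, the 12 highest ratios added few names to these lists. Spon1, which encodes the matrix protein spondin 1, stood at 175 against 11.1 CPM, a ratio of 15.7 (12.1 to 20.7), with a UMI in 108 of 180 members and 29 of 487 Ly6c2-low cells. It was not particular to Ly6c2-positive cells in DPCP skin, where Ly6c2-low C1q cells held it at 174 CPM (157 to 191) and members at 144 CPM (103 to 195). The gated control monocytes held Spon1 at 80.1 CPM (67.1 to 94.9). Ifi205, an interferon-induced DNA sensor of the Ifi200 family, was at 146 against 10.6 CPM (13.7). The gated control monocytes held more Ifi205 than members, at 179 CPM (159 to 200). Gria3 (15.6), Gm9733 (13.8) and Nt5dc2 (11.6) were found in 31, 33 and 50 members. Dach2 ranked first at 81.5 but 95% of its member UMIs came from 1 cell. The remaining 6 were Ly6a, Chil3, Iigp1, Plac8, Fcgr1 and Siglec1. Spon1 (4.24) and Ifi205 (3.54) were higher against Retnla-poor cells too.

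Retnla stood far lower in members, at 2541 CPM against 26767 CPM in Ly6c2-low cells, and 3 of 180 members exceeded the Ly6c2-low median of 201 UMIs per 10000. Free Retnla RNA was plentiful: after thinning 69.8% (62.5 to 76.4) of Cd3e-positive cells held a UMI, as did 64.2% (56.8 to 71.3) of members, a share at or below that background. Of the 12 lowest ratios, those of Cadm1, an adhesion molecule, P3h2, Dach1 and Fat3 were also called lower against Retnla-poor cells. Cadm1 was at 7.55 against 92.0 CPM, a ratio of 0.0822 (0.0475 to 0.133), and P3h2 at 3.56 against 43.4 CPM. The comparison level of Cadm1, Fat3 and Dach1 came from few cells: 59, 25 and 19 of the 487 Ly6c2-low cells held a UMI, and 504 of 562, 131 of 141 and 161 of 166 UMIs lay in the Retnla-poor cells. Dach1 had 1 UMI in members, a ratio of 0.0164 (0.000412 to 0.0924), and 32.5% of its Ly6c2-low UMIs came from 1 cell. Fat3 had no UMI in members. With a floor of 3 counts over the group it was 17.3-fold lower, a ratio of 0.0578 with an interval up to 0.0720. Thrb, the thyroid hormone receptor beta, stood at 7.11 against 95.6 CPM, a ratio of 0.0744 (0.0423 to 0.122), and Airn, with 3 UMIs in members, at a ratio of 0.0207 (0.00426 to 0.0610). Zbtb7c (0.0749), Tgfbr3 (0.0805), Ryk (0.0641), Magi2 (0.0671) and Cavin1 (0.0729) were lower too. These 7 genes had at most 27 UMIs in the Retnla-poor cells, too few to be called there. Mucl1 had no UMI in members, and 89.4% of its Ly6c2-low UMIs came from 1 cell.

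Control C1q cells are described here along their Ly6c2 level, which the rule used, so the span from cells without Ly6c2 to those with it restates the selection. Among cells with Ly6c2, the interferon list without Ifi27l2a stood at 7425 CPM at 10 to 30 Ly6c2 UMIs per 10000 (45 cells), 7676 CPM at 30 to 60 (45 cells) and 9842 CPM at 60 or more (49 cells). MHC class I was at 13723, 14352 and 18165 CPM, and Ly6a at 957, 1233 and 2149.7 CPM in the same bins. MHC class II was at 16825, 12120.0 and 12059.8 CPM, so its last 2 bins were close. Cells with less Ly6c2 stood nearer to those without it. At 3 to 10 Ly6c2 UMIs per 10000 (50 cells) that interferon list was at 4575 CPM, MHC class I at 10362 CPM and Ly6a at 537 CPM. MHC class II was at 24192 CPM there and at 26234 CPM in cells without Ly6c2. Above 0 to 3 (95 cells) the interferon list was at 2920 CPM. Within the 180 members, Spearman's rho of Ly6c2 was 0.52 with that interferon list, 0.56 with Ly6a and -0.29 with MHC class II. These are descriptions of cells of 1 sample, which share their library.

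**Figure D4:**
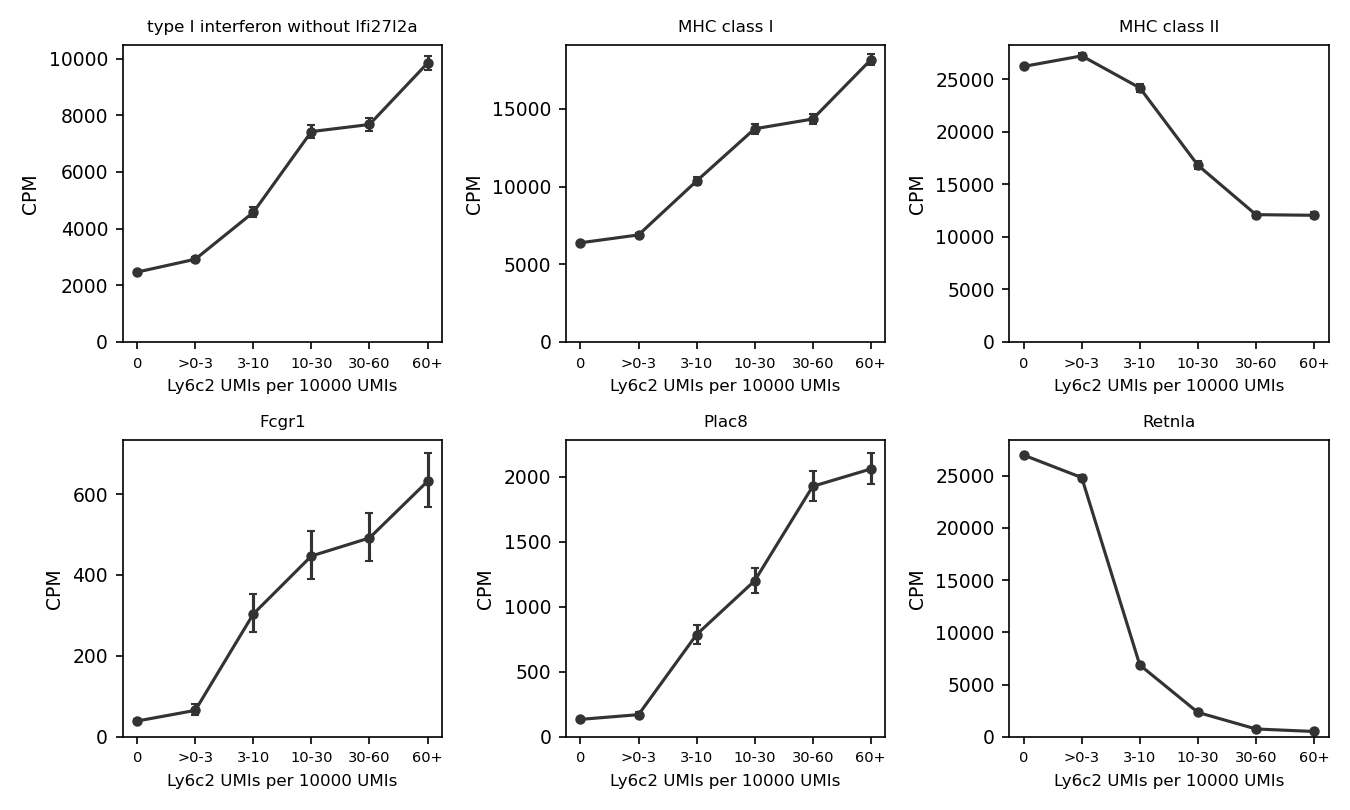
Summed level in CPM (vertical axes, from 0) of 3 gene lists and 3 genes in control C1q cells binned by Ly6c2 UMIs per 10000 UMIs of the cell (horizontal axis), with 95% Poisson intervals. The interferon list, MHC class I, Fcgr1 and Plac8 are highest in the last bin, and MHC class II and Retnla are high on the left.

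Split into 3 sets of 60 by their MHC class II level, a description since the split is itself a readout, members differed in more than class II. Folr2 stood at 393 CPM in the lowest set, 123 in the middle and 38.5 in the highest, and Cbr2 at 350.3, 129 and 64.2 CPM. Maf followed the same order at 2175, 1383 and 920.1 CPM, as did Siglec1 at 352, 206 and 153 CPM. Fn1 took the opposite order, at 123, 724 and 1223 CPM. Ly6c2 itself was at 5444 CPM in the set lowest in class II and 2602 CPM in the highest. Folr2, Cbr2, Maf and Siglec1 thus stood highest in the members poorest in class II, and Fn1 in the richest.

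Control skin also held Ly6c2-positive cells without C1q, and 161 of them passed a monocyte gate (at most 1 C1q UMI and at least 3 of Chil3 and Vcan). Plac8 was at 2932 CPM (2850.2 to 3015) there against 1458 CPM in members. The 15-gene macrophage core list was at 18197 CPM (18021 to 18374) in members and 18232 CPM (18028 to 18438) in the gated monocytes, and its genes went both ways. Lyz2, lysozyme, was at 7545 CPM in members against 11170.1 CPM, and Cx3cr1 at 209 against 423 CPM. Members were the higher group for Maf (1484 against 755 CPM), Apoe (3232 against 1355 CPM), Mertk (124 against 53.2 CPM) and Folr2 (183 against 53.2 CPM). Their summed MHC class II was 16587 CPM against 5654 CPM. The interferon list stood at 12681 CPM (12534 to 12829) in members, 10252 CPM (10099 to 10407) in the gated monocytes and 4408 CPM (4355 to 4461) in Ly6c2-low C1q cells. Both of these Ly6c2-positive groups were thus above the Ly6c2-low C1q cells, and the remaining Ly6c2-positive control cells were not measured for it. MHC class I was at 9967 CPM in the gated monocytes, against 13944 CPM in members and 6493 CPM in Ly6c2-low C1q cells. Ly6a stood at 419, 1191 and 46.3 CPM in the same order. Chil3 and Vcan define the gate and are not compared.

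The 17 DPCP members were under the 20 cells set as the least for a ratio, so only levels are given. Their interferon list stood at 3052 CPM (2853 to 3262), close to the DPCP Ly6c2-low cells at 3035 CPM (2965 to 3106) and below the control members at 12681 CPM. Per cell their list took 16.4 to 61.4 UMIs per 10000, a range that lies within the lower part of that of control members. Siglec1 had 3 UMIs in DPCP members (10.5 CPM, 2.17 to 30.8) against 236 CPM in control members. DPCP Ly6c2-low cells held it at 29.5 CPM (22.97 to 37.23), an interval that overlaps that of DPCP members. Maf had a median of 3.802 UMIs per 10000 in DPCP members and 5.485 in DPCP Ly6c2-low cells. By these values neither gene stood higher in DPCP members than in DPCP Ly6c2-low cells. In DPCP members Irf7 was at 94.7 CPM (62.4 to 138) and MHC class I at 6221 CPM (5934 to 6517), the latter against 13944 CPM in control members. MHC class II was at 15819.8 CPM in DPCP and 16587 CPM in control members. The gated DPCP monocytes, 251 cells, held the interferon list at 3141 CPM. The tag of their own condition made up a median of 83.6% of their tag UMIs, and 85 of these cells were below 80%. In the gated control monocytes the median was 96.7%, with 0 cells below 80%. Members of the 2 conditions were not matched on Ly6c2, with a median of 4.28 Ly6c2 UMIs per 10000 in DPCP and 33.2 in control. Control C1q cells of 3 to 10 Ly6c2 UMIs per 10000 held the interferon list at 7536 CPM (7312 to 7766). Those with 3 to 5 Ly6c2 UMIs held it at 5098 CPM (4765 to 5449). The part of Ly6c2 level in the difference between conditions was not tested.

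Other genes stood higher in the DPCP members. Chil3 was at 1442 CPM (1306 to 1588) and Plac8 at 2319 CPM (2146 to 2503), above the 211 and 1458 CPM of control members. Gbp5 was at 218 CPM (167 to 279) against 14.2 CPM, Iigp1 at 291 against 135 CPM, and the chemokine gene Cxcl10 at 389 CPM on 111 UMIs against 29.8 CPM. Ly6a, at 533 CPM (452 to 625), and Fcgr1, at 193 CPM (145 to 251), were below control members and above DPCP Ly6c2-low cells (136 and 101 CPM). The own tag made up a median of 92.7% of tag UMIs in DPCP members and 98.1% in control members, and 1 DPCP member was below 80%. Differences between these groups also cannot be told apart from those between the 2 tagged samples.

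**Figure D5:**
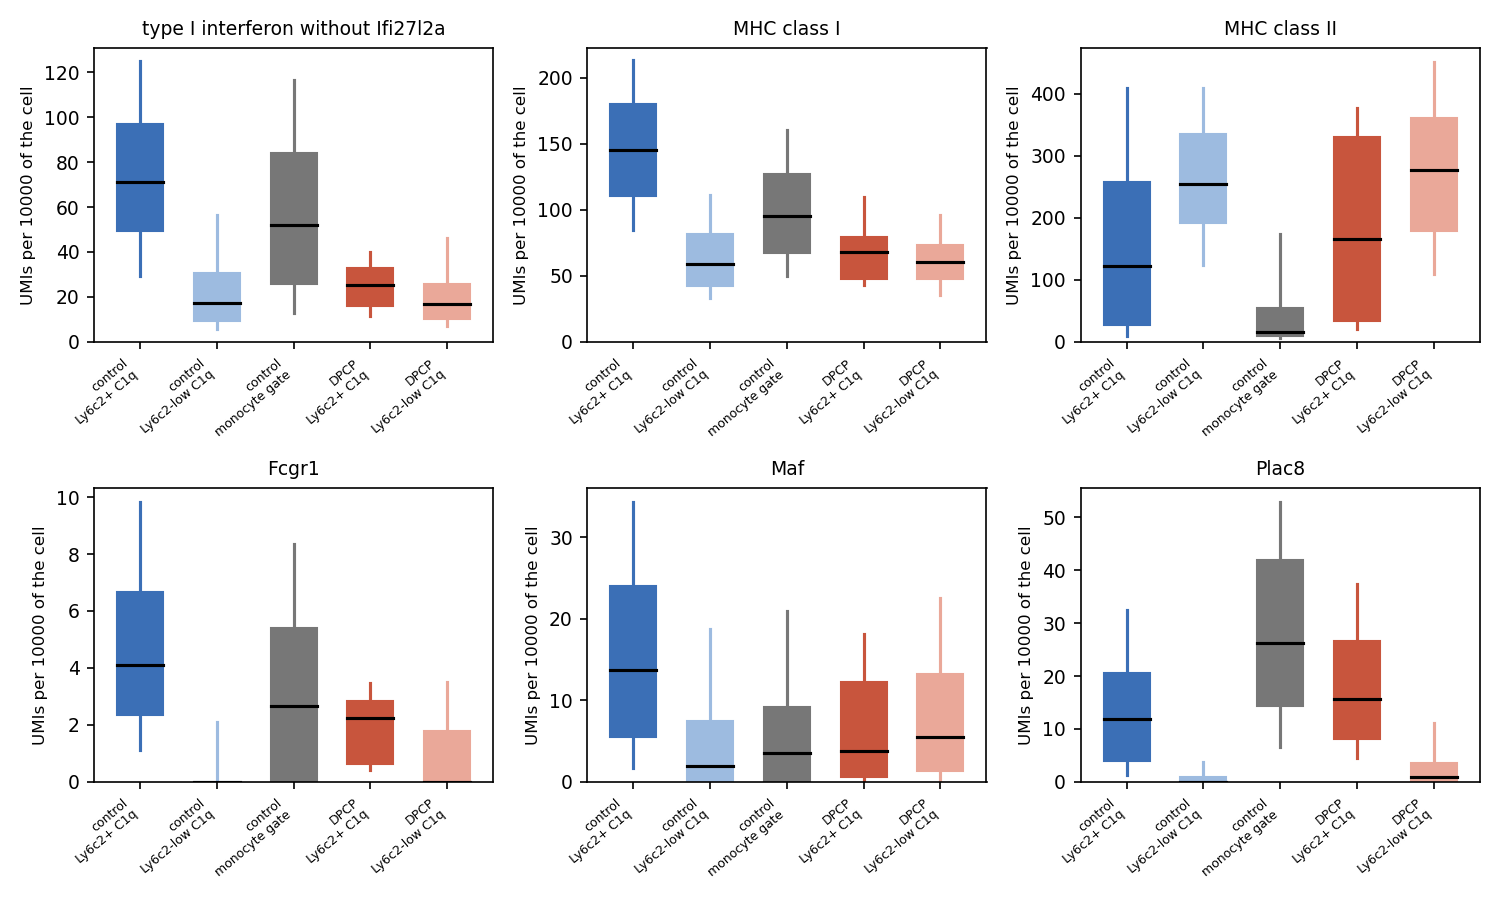
UMIs per 10000 UMIs of the cell (vertical axes, from 0) for 3 gene lists and 3 genes in 5 groups of cells, with the median as a black line, the quartiles as a box and the 10th to 90th percentile as a line. Control members have the highest median for the interferon list, MHC class I, Fcgr1 and Maf, and the gated monocytes for Plac8.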

How the data were processed

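The values analysed were unnormalized UMI counts per gene and barcode, as deposited by the authors in a matrix of 32285 genes. Per the file headers the software was Cell Ranger 7.0.0. Cell Ranger 6.1.1, Seurat 4.0.1 and mm10 are named in the submitters' processing notes. Each barcode's suffix gave its condition through the deposited aggregation and configuration tables. Control skin held 54397154 UMIs in 6280 barcodes and DPCP skin 53748585 in 7866. The 180 control members held 2250199 UMIs and the 487 Ly6c2-low cells 6111809.

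Counts were summed per group, without the genes of the rule in the comparison, and scaled to CPM. Levels have exact Poisson, ratios exact conditional binomial and shares exact Clopper-Pearson intervals at 95%. Named genes were the 12 highest and 12 lowest ratios among genes of at least 20 CPM, members of 18 lists, and markers. The members and lists were chosen with earlier results of these data known. Cells were grouped by gates, without clustering, and no doublet caller was run. Leaving out cells above the 95th percentile of UMIs stood in for one. Gene positions come from GENCODE M21. Intervals and rule were tested on simulated counts that held counting error alone, so that check does not cover the spread between cells. Python 3.11.15, numpy 2.4.6, scipy 1.17.1 and, for TMM factors, edgeR 4.0.16 in R 4.3.3 were used. The planned comparisons of the 17 DPCP members were not run. Alternatives were stricter and no cell filters, other Ly6c2 and C1q limits, own tag at least 80%, other scalings, other minimums and thinning. Those added after seeing the data used Retnla-poor or Ly6c2-free comparison cells, left out cycling cells, or lifted the S100 limit. Some genes counted in the lists are not reported here by name.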

Additional observations from a re-analysis of the deposited data

How the results depend on the processing

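Counts of called genes were 988 higher and 1021 lower, and 554 and 618 with a minimum of 200 summed UMIs, where fewer genes were measured. Under the other alternatives they stayed between 892 and 1223 higher and between 999 and 1287 lower. The control share of 27.0% was 31.2% with at least 10 C1q UMIs and 18.2% thinned to 1000 UMIs, and the DPCP share of 7.59% was 0.575% and 0.926% thinned to 2000 and 1000 UMIs. The number of interferon genes higher stayed between 22 and 28, of MHC class I genes higher between 11 and 14, and of MHC class II genes lower between 5 and 7.

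Directions of 4 values turned among the alternatives planned. The Dach2 log2 ratio was -2.87 with members at 3 or more Ly6c2 UMIs per 10000, the cell cycle median was -0.0082 and Top2a -1.13 without the cells of highest UMI count, and the resident macrophage median was 0.57 with a minimum of 200 UMIs. Against the 96 Retnla-poor cells, 24 of the 62 called genes that were followed lost their call. There the log2 ratios of Ryk, Magi2, Cavin1, Gbp2b, Fn1, Ccl24 and C4b turned to 0.79, 0.46, 0.92, 0.69, 0.33, 0.58 and 0.21. The first 3 rested on 1 or 2 UMIs in those cells, and Gbp2b on a floor of 3 counts. The log2 ratios of Gas6, Selenop and Irf8 turned to -0.32, -0.17 and -0.82, and the macrophage core and scavenger medians to -0.021 and -0.39. The log2 ratio of Retnla turned to 2.40, which the choice of cells fixes. The cause of the others was not tested.

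TMM scaling moved the median over all genes from -0.01 to -0.04 and left 892 genes higher and 1115 lower. No paired analysis was possible because each condition is 1 tagged sample and no result comes from a test. The DPCP members are limited by their number, 17 cells with 285023 UMIs in all. Genes under 50 UMIs over both groups of a comparison were not called higher or lower, though some of their ratios are given.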

Other observations

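Cd93, which encodes a lectin-like receptor of monocytes and endothelium and belongs to none of the lists above, was chosen after its values were seen. It stood at 203 CPM (185 to 223) in control members and 24.5 CPM (20.8 to 28.8) in Ly6c2-low C1q cells. A Cd93 UMI was found in 63.9% of members and 12.7% of Ly6c2-low cells, and after thinning to 2000 UMIs in 26.8% (20.5 to 33.9) and 5.79% (3.88 to 8.25), against 1.10% (0.133 to 3.91) of control Cd3e-positive cells.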
